A study of Mus musculus with 18 samples.

Results

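The genes described here are 33 members of the PPAR-alpha and fatty acid oxidation programme of the liver. They were taken by gene symbol from a list of the programme's genes, and each is represented by the probe set of highest mean among those the platform annotation gives to that gene. All 33 passed the filter on low signals, out of 12896 genes tested. RNA of male mouse livers was measured on 18 Affymetrix arrays, 3 in each of 6 groups. Wild-type (Hmgn1+/+) and knockout (Hmgn1-/-) livers came from animals of 4 weeks with no injection, or from animals injected at 4 weeks of age and labelled 12 weeks. The injection was saline or N-nitrosodiethylamine (DEN), a liver carcinogen, at 10 µg per g of body weight. Both genotypes descend from heterozygous crosses and were then bred as separate homozygous lines, so the missing nucleosome-binding protein HMGN1 and any other difference between the lines cannot be told apart. Whether the 12 weeks count from birth or from the injection is uncertain, age and DEN cannot be told apart between the 4-week and DEN groups, and nothing states that each array is a separate animal. The p-values therefore measure a spread between samples that may be technical.

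PPAR-alpha (Ppara) is a nuclear receptor that binds fatty acids and, as a dimer with RXR, switches on genes for burning fat. In the liver it acts most strongly in fasting, when fatty acids arrive from adipose tissue. They are bound in the cytosol, coupled to coenzyme A, passed into mitochondria as carnitine esters and shortened by beta-oxidation, or shortened in peroxisomes first. Acyl-CoA thioesterases release free fatty acids from coenzyme A, and secreted products such as FGF21 and ANGPTL4 act on other tissues.

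The receptor dimer binds a pair of AGGTCA hexamers in the same orientation with 1 base between them, AGGTCANAGGTCA. This motif was searched on both strands, with at most 2 mismatches, in RefSeq promoter windows of build GRCm38.p6, from 250 bases before to 50 bases after each start. Of the 33 members, 28 matched the table, with 29 promoters. A match was present in 5 of the 29 (17.2%), against 3.86% of 32851 promoters of all genes, and the AGGTCA hexamer alone in 9 (31.0%), against 16.3% of all. The 5 matches are shown because the motif searched is the textbook element of this programme. Each is written 5′ to 3′ on the strand of its gene, with the matched bases in capitals and 20 bases on either side. They come from the windows chr4:86670252-86670304, chr5:17835927-17835979, chr6:71199792-71199844, chr9:108662122-108662174 and chr12:84038346-84038398, in the order below, on the minus strand for Plin2 and Cd36 and on the plus strand for the other three.
Plin2: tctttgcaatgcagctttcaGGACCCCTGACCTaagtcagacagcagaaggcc
Cd36: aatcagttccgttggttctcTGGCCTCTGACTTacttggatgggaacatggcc
Fabp1: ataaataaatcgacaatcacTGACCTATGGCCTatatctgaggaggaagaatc
Slc25a20: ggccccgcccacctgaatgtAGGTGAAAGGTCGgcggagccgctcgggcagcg
Acot4: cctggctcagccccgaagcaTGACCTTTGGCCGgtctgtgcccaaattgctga

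The match in Fabp1 has 1 mismatch and begins 67 bases before the start. The matches in the other four have 2 mismatches. Those in Plin2, Cd36 and Acot4 begin 225, 63 and 13 bases before the start, and that in Slc25a20 lies inside the transcript, from base 7 to base 19. In 4 of the 5 the motif reads on the opposite strand, so the capitals show its reverse complement. These are matches of letters, not measured binding. Of these 5 genes, Cd36 had a called change in a comparison free of saline arrays, and that call was lost when these arrays were also left out of the fit (below).

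Signals within a group were close, with replicate correlations between 0.97 and 0.99 across probe sets. The median within-group SD was 0.12 in log2 over the members, against 0.20 over all genes tested, and the largest were those of Acot3 (0.60), Pdk4 (0.38) and Fgf21 (0.35). Over 3 conditions, 3 tested probe sets of Hmgn1 differed between the labelled genotypes by -0.15 to 0.06 in log2 (smallest adjusted p 0.577). Where these probes lie relative to the deleted part is not given in the sources used here, so they do not check the labels. The 6 saline arrays stood apart. The brightest probe set read 16720 to 21752 there and 46967 to 60173 on the other 12, and added hybridization controls averaged 8.03 to 8.48 in log2, against 10.60 to 11.34. For most comparisons with these arrays, calls on quantile-normalized values are therefore given as well, and the comparisons without saline arrays come first. Other values on these arrays are deposited ones unless stated. Wild-type replicate 2 at 4 weeks had the highest 3' to 5' ratio of Gapdh, a sign of RNA degradation, at 2.19, and knockout replicate 1 at 4 weeks had 1.70, against a lowest value of 0.907. Adipoq, a marker of fat cells, had a signal of 864 on knockout DEN replicate 1 and 463 on knockout saline replicate 2, and 1.87 to 33.3 on the other arrays.

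**Figure D1:**
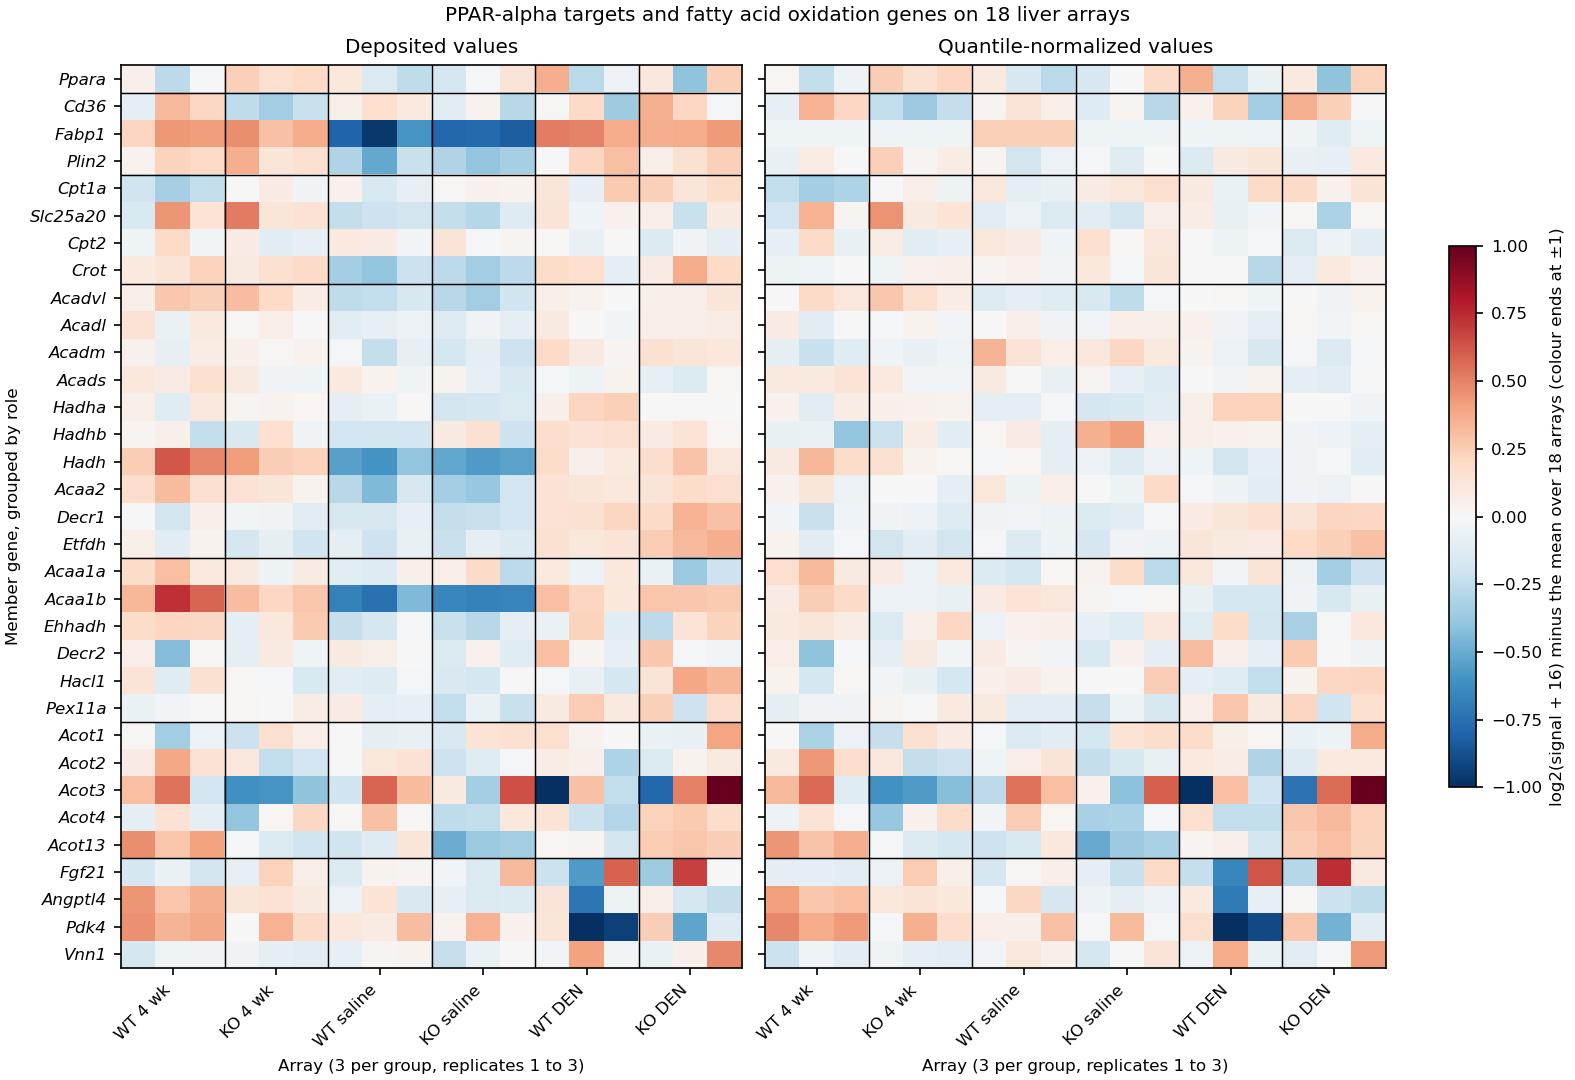
Each row is a member and each column an array, with 3 arrays in each of 6 groups. Colour gives log2(signal + 16) minus the mean of the row, for deposited values on the left and quantile-normalized values on the right. Fabp1, Hadh and Acaa1b are blue on the 6 saline arrays on the left, a contrast that is mostly absent on the right, and Acot3 and Pdk4 vary most between arrays of a group.

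At 4 weeks, before any injection, 0 of the 33 members rose and 1, Acot13, fell in the knockout, while 1.78% of all genes tested rose and 1.29% fell, a share near that of the members. An unadjusted p under 0.05 was found for 5 members and for 17.5% of all genes. The median difference was -0.03 in log2 over the members and 0.02 over all genes. For 25 of the 33 members the 95% interval of the difference lay within 0.5 of 0 on the log2 scale, as did that of 43.9% of all genes. With quantile-normalized values, Cpt1a (0.30, adjusted p 0.0445) and Acaa1b (-0.24, adjusted p 0.0254) also passed, while 209 of 12896 genes rose and 166 fell. Weaker probe sets of Cd36 (-0.79, adjusted p 0.0136) and Ppara (0.41, adjusted p 0.0134) were called as well.

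With saline at 12 weeks no member differed between the genotypes by limma's test, and 0.0155% of all genes were called. An unadjusted p under 0.05 was found for 1 member and for 5.83% of all genes. With quantile-normalized values Fabp1 passed, at -0.28 (adjusted p 0.0267), while 4 of 12896 genes rose and 1 fell. On those values Fabp1 is set by rank, and it held the highest signal of the array on the 3 wild-type saline arrays and the second highest on the 3 knockout ones. With DEN no member was called on either scale, and 0.00775% of all genes were called with deposited values. On these values 6 members had an unadjusted p under 0.05, as did 8.94% of all genes. The median differences were -0.03 with saline and 0.05 with DEN, against 0.02 and -0.01 over all genes. Intervals within 0.5 of 0 were found for 28 members with saline and 27 with DEN, against 53.2% and 51.1% of all genes.

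**Figure D2:**
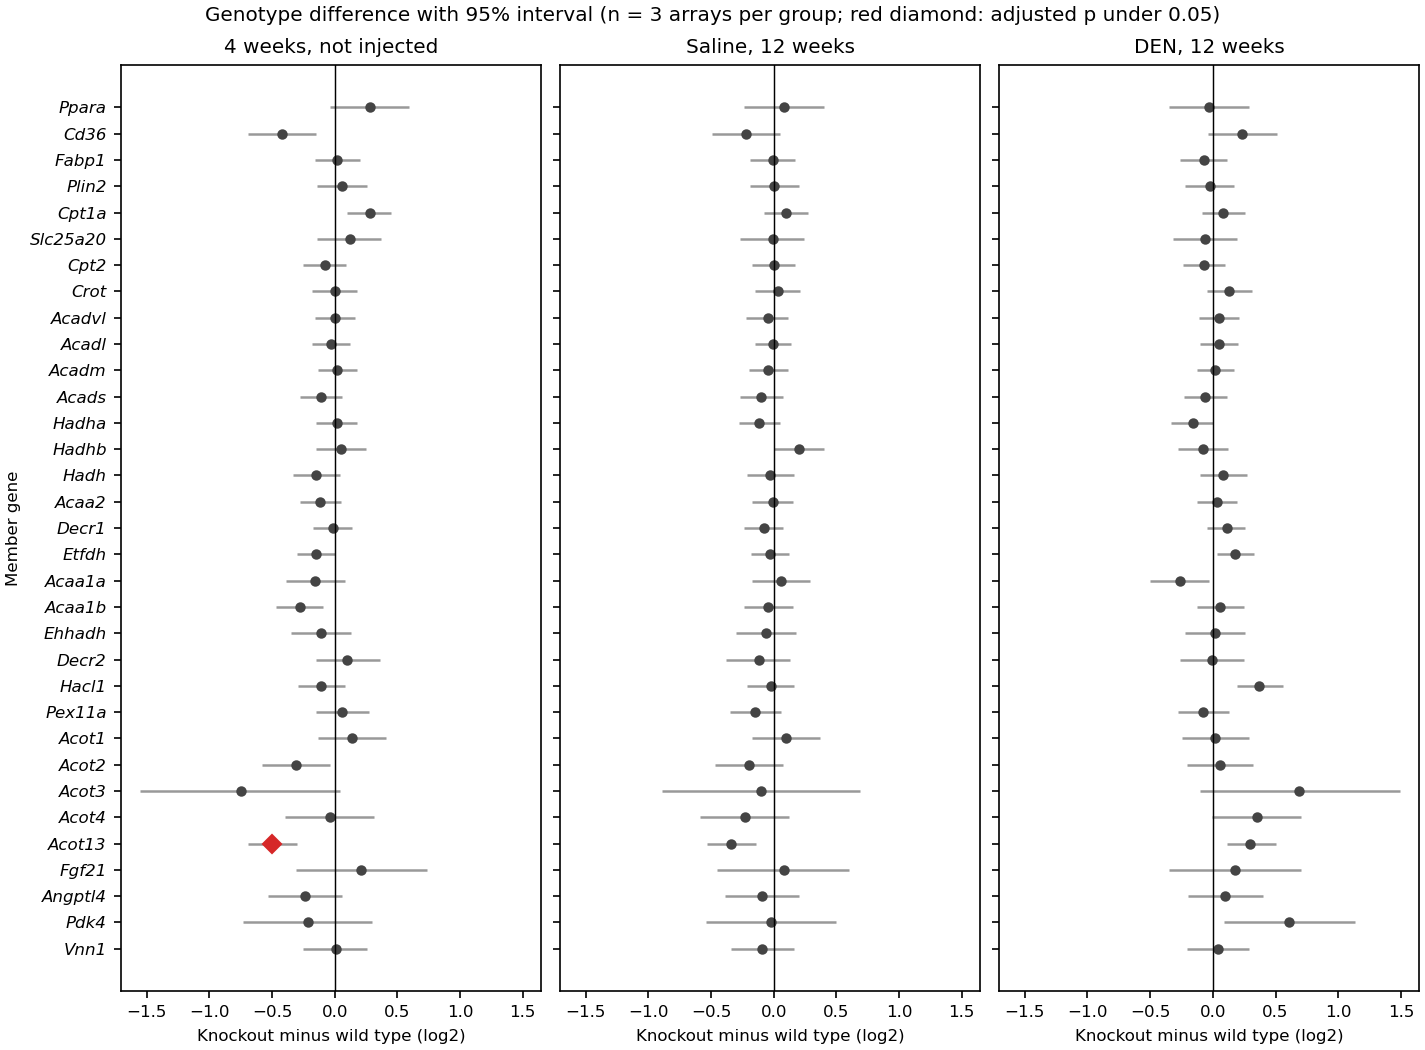
Points give the knockout minus wild-type difference in log2 for each member, with its 95% interval, in uninjected livers at 4 weeks, with saline and with DEN (3 arrays per group). Acot13 at 4 weeks, at -0.50, is the red diamond and passed an adjusted p of 0.05. The intervals of Acot3, Pdk4 and Fgf21 are the widest.

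From 4 weeks to the DEN group, 6 members were called in wild type and 5 in the knockout, with Acot13 in both and in opposite directions. In wild type 1 member rose (Cpt1a) and 5 fell (Hadh, Acaa1b, Acot13, Angptl4 and Pdk4), while 2.27% of all genes rose and 2.44% fell. In the knockout 5 rose (Cd36, Decr1, Etfdh, Hacl1 and Acot13) and 0 fell, while 4.32% of all genes rose and 4.47% fell. The median over the members was -0.06 in wild type and 0.04 in the knockout, against 0.04 and 0.00 over all genes. Intervals within 0.5 of 0 covered 24 members in wild type and 22 in the knockout, against 42.8% and 38.9% of all genes. The difference of these responses, which equals the genotype effect with DEN minus that at 4 weeks, was called for Acot13, at 0.80, and for 1.08% of all genes in either direction. For each of the other 32 members this difference did not pass, so a call in 1 genotype does not show that the genotypes differ. The wild-type count was 2 (Acot13 and Pdk4) without the 6 saline arrays and 0 when the 2 groups were fitted alone. The knockout count was 3 (Decr1, Etfdh and Acot13) without the saline arrays. RNA quality moved with this comparison. In the knockout the Gapdh ratio was 1.35 to 1.70 at 4 weeks and 0.907 to 0.937 with DEN, and that of Actb 4.00 to 5.05 and 2.82 to 3.05, with no overlap in either. In wild type the Gapdh ratio was 1.13 to 2.19 at 4 weeks and 1.02 to 1.13 with DEN, so with DEN each knockout array also lay below each wild-type array. The part of RNA quality in the calls was not tested beyond leaving out the highest array of each genotype.

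**Figure D3:**
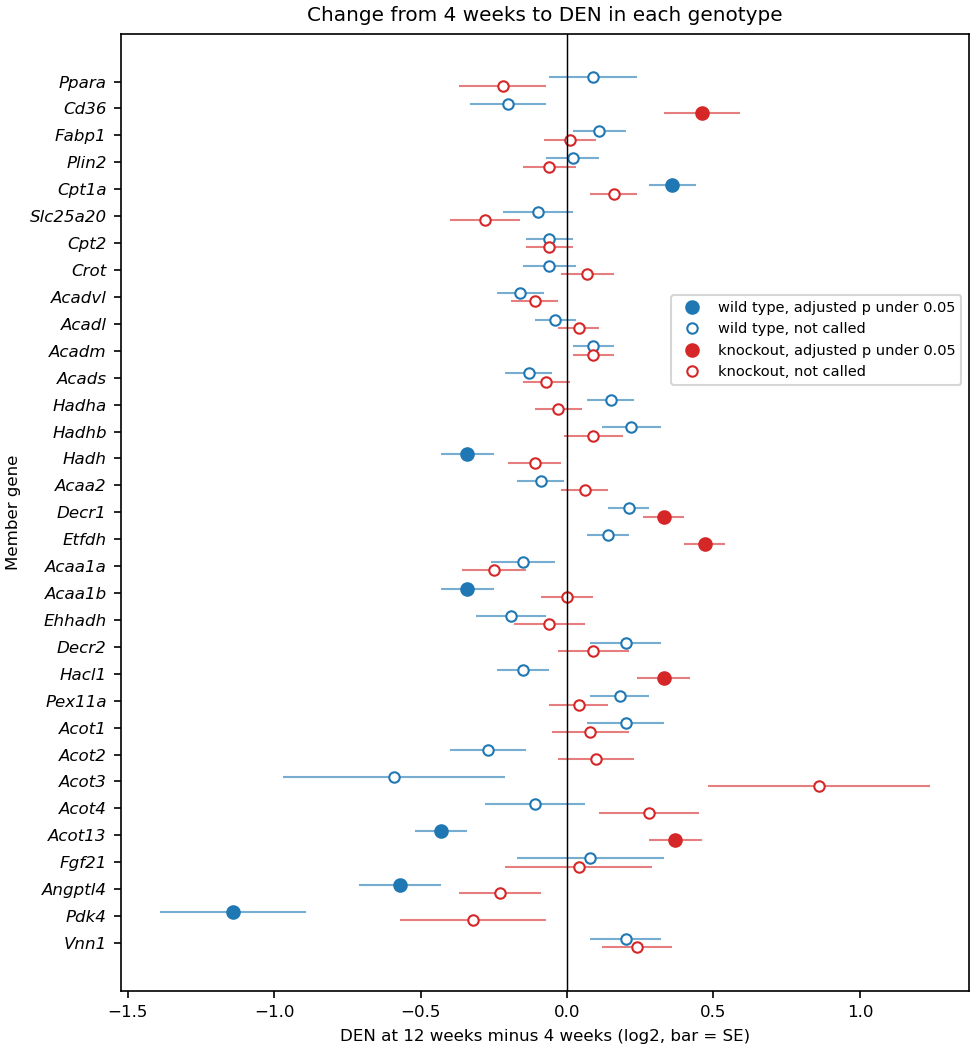
Each member's DEN minus 4-week difference in log2 is shown for wild type (blue) and knockout (red), with its SE; filled points passed an adjusted p of 0.05. Acot13 has filled points on opposite sides of 0, at -0.43 in wild type and 0.37 in the knockout.

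Ppara, the receptor, had signals of 1393, 1121 and 1337 on the wild-type 4-week arrays and 1594, 1506 and 1552 on the knockout ones. With DEN they were 1734, 1114 and 1295 in wild type and 1448, 1017 and 1592 in the knockout. The knockout arrays were all above the wild-type ones at 4 weeks, and the groups overlapped with DEN. The difference at 4 weeks was 0.28 (SE 0.15, adjusted p 0.414) and that with DEN -0.03 (SE 0.15). The other 2 probe sets of Ppara did not act alike. At 4 weeks they gave 0.13 (adjusted p 0.819) and 0.41 (adjusted p 0.0134). The latter also rose in wild type from 4 weeks to DEN by 0.38 (adjusted p 0.0155), and its genotype effect with DEN minus that at 4 weeks was -0.55 (adjusted p 0.0394), so the call for the receptor depends on the probe set.

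Cd36 is a membrane protein that takes up fatty acids, in hepatocytes and also in macrophages, fat cells and endothelium. Its signals at 4 weeks were 548, 734 and 677 in wild type and 488, 456 and 497 in the knockout, with no overlap. With DEN they were 590, 669 and 453 in wild type and 751, 677 and 580 in the knockout, where the highest of the 18 arrays was the one with the Adipoq signal of 864. From 4 weeks to DEN Cd36 rose in the knockout by 0.46 (SE 0.13, adjusted p 0.0337), and without that array the difference was 0.37 (adjusted p 0.124). This call was lost on leaving out 5 of the 6 arrays in turn and under 3 of 12 other settings. Among these was the fit without the 6 saline arrays (limma, adjusted p 0.0781). The knockout minus wild-type difference was -0.42 (SE 0.13, adjusted p 0.102) at 4 weeks and 0.23 (SE 0.13, adjusted p 0.635) with DEN.

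The other 2 probe sets of Cd36 gave -0.45 (adjusted p 0.120) and -0.79 (adjusted p 0.0136) at 4 weeks. For the genotype effect with DEN minus that at 4 weeks they gave 0.94 (adjusted p 0.0371) and 1.15 (adjusted p 0.0241), against 0.65 (adjusted p 0.103) for the probe set of highest mean. Macrophage markers moved in the same direction. In the knockout at 4 weeks 3 of 10 fell (Tyrobp by 1.14, Lyz2 by 0.82 and Csf1r by 0.53), against 1.29% of all genes. From 4 weeks to DEN 8 of 10 rose there, against 4.32% of all genes, and in wild type 0 of 10 changed between these groups. Their summed signal was 6013 to 6604 in wild type and 3959 to 4212 in the knockout at 4 weeks, and 5312 to 7523 and 5486 to 8276 with DEN. Of 8 endothelial and 4 fat cell markers tested, 0 were called between genotypes at 4 weeks or from 4 weeks to DEN in the knockout. The medians of these 2 lists were -0.02 and 0.60 between genotypes at 4 weeks. From 4 weeks to DEN in the knockout they were 0.01 and 0.69. In bulk liver, fewer cells of a type and less RNA per cell cannot be told apart, and the part of any of these cell types in the Cd36 values was not tested.

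Fabp1, the abundant binding protein of the hepatocyte cytosol, and Plin2, a coat protein of lipid droplets, showed no called change over the 12 arrays without saline. Fabp1 had its lowest signal there at 37889 and its highest at 46501, and Plin2 ranged from 7233 to 9282. Their 4 differences from 4 weeks to DEN lay between -0.06 and 0.11, and none was called.

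Cpt1a is the enzyme that makes acylcarnitine at the outer mitochondrial membrane and sets the pace of fatty acid entry. Its signals at 4 weeks were 2102, 1912 and 2032 in wild type and 2420, 2562 and 2352 in the knockout. With DEN they were 2632, 2281 and 2892 in wild type and 2854, 2629 and 2741 in the knockout. The wild-type 4-week arrays were the lowest of these groups, with no overlap with any of the other three. In wild type Cpt1a rose by 0.36 (SE 0.08, adjusted p 0.0189), and in the knockout it differed by 0.16 (SE 0.08, adjusted p 0.248). The wild-type call was lost on leaving out 3 of the 6 arrays in turn, with 0.28 (adjusted p 0.0812) without DEN replicate 3. It was also lost under 4 of 12 other settings. Among these was leaving out the 4-week array of highest Gapdh ratio in each genotype. The other 2 probe sets gave 0.12 (adjusted p 0.710) and 0.72 (adjusted p 0.0252) for the same comparison. At 4 weeks Cpt1a was higher in the knockout by 0.28 (SE 0.08), short of the threshold at an adjusted p of 0.0956.

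The rest of the shuttle showed no called change between these groups. Slc25a20, the carrier that brings acylcarnitine across the inner membrane, differed by -0.28 (SE 0.12, adjusted p 0.167) from 4 weeks to DEN in the knockout. Its highest signals were 4753 on wild-type replicate 2 and 5031 on knockout replicate 1 at 4 weeks, the arrays with the highest Gapdh ratio in each genotype. A second probe set of Slc25a20 gave 0.27 (adjusted p 0.0650) from 4 weeks to DEN in the knockout, so the direction depends on the probe set. Cpt2, which turns acylcarnitine back into acyl-CoA inside, ranged from 1440 to 1827 over all 18 arrays. Crot, the peroxisomal carnitine octanoyltransferase, differed by -0.06 in wild type and 0.07 in the knockout.

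None of the mitochondrial enzymes was called between genotypes, with 10 differences between -0.15 and 0.05 at 4 weeks and between -0.16 and 0.18 with DEN. Etfdh passes electrons from the acyl-CoA dehydrogenases to ubiquinone. Its signals at 4 weeks were 2570, 2280 and 2529 in wild type and 2180, 2310 and 2148 in the knockout, and with DEN 2752, 2669 and 2694 and then 2945, 3093 and 3179. The knockout DEN arrays were the 3 highest of all 18. Etfdh rose from 4 weeks to DEN in the knockout by 0.47 (SE 0.07, adjusted p 9.11e-04) and differed by 0.14 (SE 0.07, adjusted p 0.314) in wild type. The difference of these responses was 0.33 (SE 0.10, adjusted p 0.144).

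Decr1 is the reductase needed for unsaturated fatty acids. It had 3395, 2984 and 3519 in wild type and 3331, 3310 and 3153 in the knockout at 4 weeks. With DEN the values were 3748, 3777 and 3933 and then 3877, 4319 and 4162, so in both genotypes each DEN array lay above each 4-week array. Decr1 rose in the knockout by 0.33 (SE 0.07, adjusted p 0.00908), and in wild type it differed by 0.21 (SE 0.07, adjusted p 0.105). The knockout calls of Etfdh and Decr1 remained under each of 12 other settings and on leaving out each of the 6 arrays. A weaker probe set of Decr1 gave 0.24 (adjusted p 0.102) in the knockout.

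Hadh, the short-chain hydroxyacyl-CoA dehydrogenase, fell in wild type. Its signals were 15026, 19477 and 17667 at 4 weeks and 14364, 13142 and 13569 with DEN in wild type. In the knockout they were 16978, 15068 and 14870 and then 14351, 15473 and 13714. The wild-type fall was -0.34 (SE 0.09, adjusted p 0.0349), and without replicate 2 at 4 weeks, the array with the Gapdh ratio of 2.19, the difference was -0.25 (adjusted p 0.168). This call was lost on leaving out 4 of the 6 arrays in turn and under 6 of 12 other settings. The other 2 probe sets of Hadh gave -0.04 (adjusted p 0.811) and 0.62 (adjusted p 0.476), so the direction depends on the probe set.

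Hadha and Hadhb are the subunits of the trifunctional protein, which carries out the last steps for long chains. Their genes lie head to head, and the 274 bases between the first transcribed base of each, chr5:30154980-30155253 of GRCm38.p6 from RefSeq, are shown because both members are transcribed outward from them. The sequence reads 5′ to 3′ on the plus strand, from the start of Hadha to that of Hadhb, with its 19 CG pairs in capitals. It is 60.2% G and C and holds no match to the receptor motif.
Hadha and Hadhb: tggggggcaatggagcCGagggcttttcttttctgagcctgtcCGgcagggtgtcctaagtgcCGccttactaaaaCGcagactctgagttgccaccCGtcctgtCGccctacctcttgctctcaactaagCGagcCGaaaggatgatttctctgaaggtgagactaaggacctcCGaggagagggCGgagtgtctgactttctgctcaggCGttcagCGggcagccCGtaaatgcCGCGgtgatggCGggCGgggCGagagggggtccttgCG

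Between 4 weeks and DEN, Hadha differed by 0.15 (SE 0.08, adjusted p 0.292) in wild type and -0.03 (SE 0.08) in the knockout, and Hadhb by 0.22 (SE 0.10, adjusted p 0.228) and 0.09 (SE 0.10). Another probe set of Hadhb rose in the knockout by 0.41 (adjusted p 0.00480), and one more, of low signal, fell there by 0.60 (adjusted p 0.0346). The acyl-CoA dehydrogenases Acadvl, Acadl, Acadm and Acads, which open each round for very long, long, medium and short chains, differed by -0.16 to 0.09 in the same comparisons, with no call. Acaa2, the thiolase that closes the round, differed by -0.09 and 0.06, while another of its probe sets rose in the knockout by 0.82 (adjusted p 0.0176).

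Peroxisomal members behaved singly. Hacl1, a lyase that shortens 2-hydroxy and branched fatty acids, had signals of 4240, 3573 and 4315 in wild type and 3921, 3819 and 3489 in the knockout at 4 weeks. With DEN it had 3832, 3675 and 3428 in wild type and 4240, 5066 and 4880 in the knockout. The knockout DEN arrays lay above the wild-type DEN arrays and above the knockout 4-week arrays. Hacl1 rose from 4 weeks to DEN in the knockout by 0.33 (SE 0.09, adjusted p 0.0241) and differed by -0.15 (SE 0.09, adjusted p 0.393) in wild type. Its knockout call was lost with quantile-normalized values (0.25, adjusted p 0.0641) and on leaving out 4 of the 6 arrays in turn. With DEN the genotype difference was 0.37 (SE 0.09), which did not pass (adjusted p 0.230).

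Acaa1b, a peroxisomal thiolase, had signals of 25618, 33776 and 30424 at 4 weeks and 25044, 23698 and 21954 with DEN in wild type, and in the knockout 25237, 23478 and 24727 and then 24650, 24578 and 24428. It fell in wild type by 0.34 (SE 0.09, adjusted p 0.0396), and the knockout difference was 0.00 (SE 0.09). The highest value, 33776, was again on the array with the Gapdh ratio of 2.19, and without it the wild-type difference was -0.25 (adjusted p 0.195). Leaving out 4 of the 6 arrays in turn lost the wild-type call, as did 5 of 12 other settings. Probe sets that the annotation assigns to Acaa1b and its near-identical copy Acaa1a together gave -0.22 (adjusted p 0.143) and -0.15 (adjusted p 0.346), and reads of the pair by a shared probe cannot be told apart. Acaa1a itself, Ehhadh (the bifunctional enzyme, a classic receptor target), Decr2 (the peroxisomal dienoyl-CoA reductase) and Pex11a (a peroxisome division factor) differed by -0.25 to 0.20 from 4 weeks to DEN, with no call.

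Acot13, a thioesterase found at mitochondria, was the only member whose genotype difference passed in any condition with deposited values at the probe set of highest mean. Its signals at 4 weeks were 1373, 1198 and 1309 in wild type and 974, 899 and 860 in the knockout. With saline they were 859, 903 and 1077 and then 696, 760 and 771, and with DEN 1000, 1008 and 867 and then 1179, 1198 and 1172. The knockout arrays were all below the wild-type arrays at 4 weeks and with saline, and all above them with DEN.

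At 4 weeks Acot13 fell in the knockout by 0.50 (SE 0.09, adjusted p 0.00532), a level 0.708 times that of wild type. The difference was -0.34 (SE 0.09, adjusted p 0.583) with saline and 0.30 (SE 0.09, adjusted p 0.364) with DEN. From 4 weeks to DEN it fell in wild type by 0.43 (SE 0.09, adjusted p 0.0130) and rose in the knockout by 0.37 (SE 0.09, adjusted p 0.0178). The change in the genotype difference between 4 weeks and DEN was 0.80 (SE 0.13, adjusted p 0.00875). It ranged from 0.73 to 0.85 on leaving out each of 12 arrays, with a highest adjusted p of 0.0290, and was called under each of 12 other settings. From saline to DEN the corresponding change was 0.64 (SE 0.13), which did not pass (adjusted p 0.282). The wild-type call was lost without DEN replicate 3 (-0.36, adjusted p 0.0573) and when the 2 groups were fitted alone (adjusted p 0.114). The knockout call was lost on leaving out 2 of the 6 arrays in turn, with 0.33 (adjusted p 0.0801) without 4-week replicate 3. Acot13 has 1 probe set, so no other measured it. The macrophage markers given beside Cd36 also were lower in the knockout at 4 weeks, and their part in the Acot13 values was not tested.

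**Figure D4:**
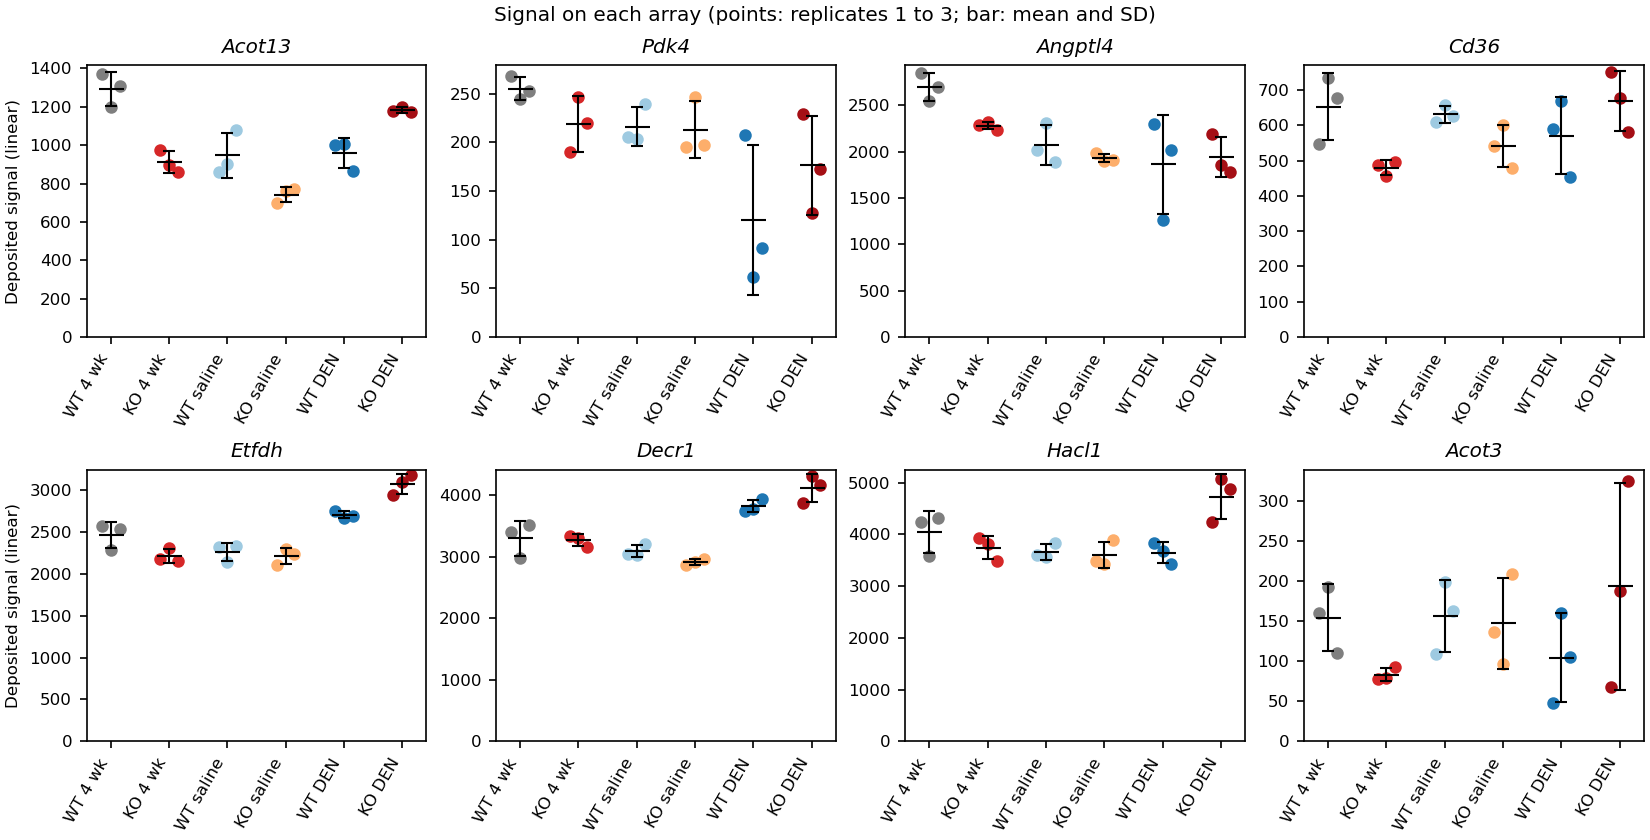
Deposited signals of 8 members are shown on each array, on a linear axis from 0, with the mean and SD of each group of 3 arrays. Acot13 falls into separate groups of points, with knockout below wild type at 4 weeks and above it with DEN, while Pdk4 and Acot3 spread widely within the DEN groups.

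Acot1, Acot2, Acot4 and Acot3 lie side by side on chromosome 12, with 64.3 kb from the first start to the last in RefSeq, and cleave long-chain and dicarboxylic acyl-CoA in cytosol, mitochondria and peroxisomes. None was called without saline arrays. Acot3 had 161, 193 and 110 in wild type and 78.0, 79.6 and 92.6 in the knockout at 4 weeks, with no overlap, and 48.5, 160 and 105 and then 67.4, 188 and 326 with DEN. Its genotype difference was -0.75 (SE 0.38, adjusted p 0.369) at 4 weeks and 0.69 (SE 0.38, adjusted p 0.625) with DEN, and the change between them 1.45 (SE 0.54, adjusted p 0.221). Without knockout DEN replicate 1, which held 67.4 and the Adipoq signal, this change was called for Acot3 as well as for Hacl1 and Acot13. A probe set shared by Acot1 and Acot2 differed by 0.22 (adjusted p 0.492) between genotypes at 4 weeks, while Acot1 gave 0.14 and Acot2 -0.31, neither called.

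Pdk4 is a kinase that shuts pyruvate dehydrogenase and so spares glucose when fat is burnt. Its signals were 268, 245 and 253 in wild type and 190, 247 and 220 in the knockout at 4 weeks, and with DEN 208, 61.4 and 91.8 in wild type and 229, 127 and 173 in the knockout. In wild type it fell by 1.14 (SE 0.25, adjusted p 0.0130), to 0.455 times the 4-week level, but DEN replicate 1, at 208, lay nearer to the 4-week arrays than to the other two. Without DEN replicate 2 the difference was -0.80 (adjusted p 0.0722). In the knockout it was -0.32 (SE 0.25, adjusted p 0.485), and the difference of the responses was 0.82 (SE 0.35, adjusted p 0.292).

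Angptl4, a secreted inhibitor of lipoprotein lipase, had 2853, 2547 and 2693 in wild type and 2283, 2319 and 2239 in the knockout at 4 weeks, with no overlap. With DEN it had 2303, 1263 and 2023 in wild type and 2193, 1860 and 1781 in the knockout. It fell in wild type by 0.57 (SE 0.14, adjusted p 0.0259), and the difference was -0.32 (adjusted p 0.105) without DEN replicate 2, the array on which Pdk4 also was lowest. The call of Angptl4 was lost on leaving out 4 of the 6 arrays in turn and under 5 of 12 other settings. A second probe set of low signal gave -0.04 (adjusted p 0.954). Fgf21, the hepatic hormone of fasting, was low on all arrays, from 31.9 to 98.0, and its differences came with an SE of 0.25 in each genotype comparison. Vnn1, a pantetheinase that is a sensitive receptor target, differed by 0.20 (SE 0.12) in wild type and 0.24 (SE 0.12) in the knockout from 4 weeks to DEN, with no call.

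Comparing the signs of the genotype difference, 16 of the 33 members (48.5%) were lower in the knockout at 4 weeks and higher with DEN, against 24.1% of all genes tested. With quantile-normalized values this held for 12 members (36.4%), against 26.9% of all genes. The opposite order was found for 8 members (24.2%) and 29.2% of all genes with deposited values. With quantile-normalized values it was found for 7 members (21.2%) and 26.4% of all genes. Most of these differences were small, and only that of Acot13 at 4 weeks passed on its own with deposited values.

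On the saline arrays the brightest members read lower, while the dimmer ones differed little in the median. Fabp1 had 18774, 16720 and 21752 in wild type and 19006, 19065 and 18471 in the knockout, against at least 37889 on any other array. Acaa1b had 12125 to 15022 there, against at least 21954 elsewhere. After quantile normalization Fabp1 was 35042 to 42438 on the saline arrays and 33135 to 35042 on the others, and Acaa1b 21541 to 23803 and 19250 to 25749.

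From 4 weeks to saline, 0 members rose and 8 fell in wild type with deposited values (4.87% and 4.92% of all genes), and 0 rose and 8 fell in the knockout (5.40% and 6.29%). With quantile-normalized values 3 rose and 2 fell in wild type (3.55% and 2.61% of all genes), and 1 rose and 1 fell in the knockout (4.27% and 4.01%). The 9 members with a mean of at least 12 in log2 on the other arrays had a median of -0.50 in wild type and -0.44 in the knockout, and the other 24 had -0.07 and -0.06. Over 421 genes as bright the median was -0.46 in both genotypes. The correlation across the 33 members between signal and difference, a description in which all points share the same arrays, was -0.70 in wild type and -0.75 in the knockout, and 0.24 and 0.00 after quantile normalization. The hepatocyte markers, 6 of 6, also fell on the wild-type saline arrays, with none called after quantile normalization. Saline treatment and the different range of these arrays cannot be told apart.

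**Figure D5:**
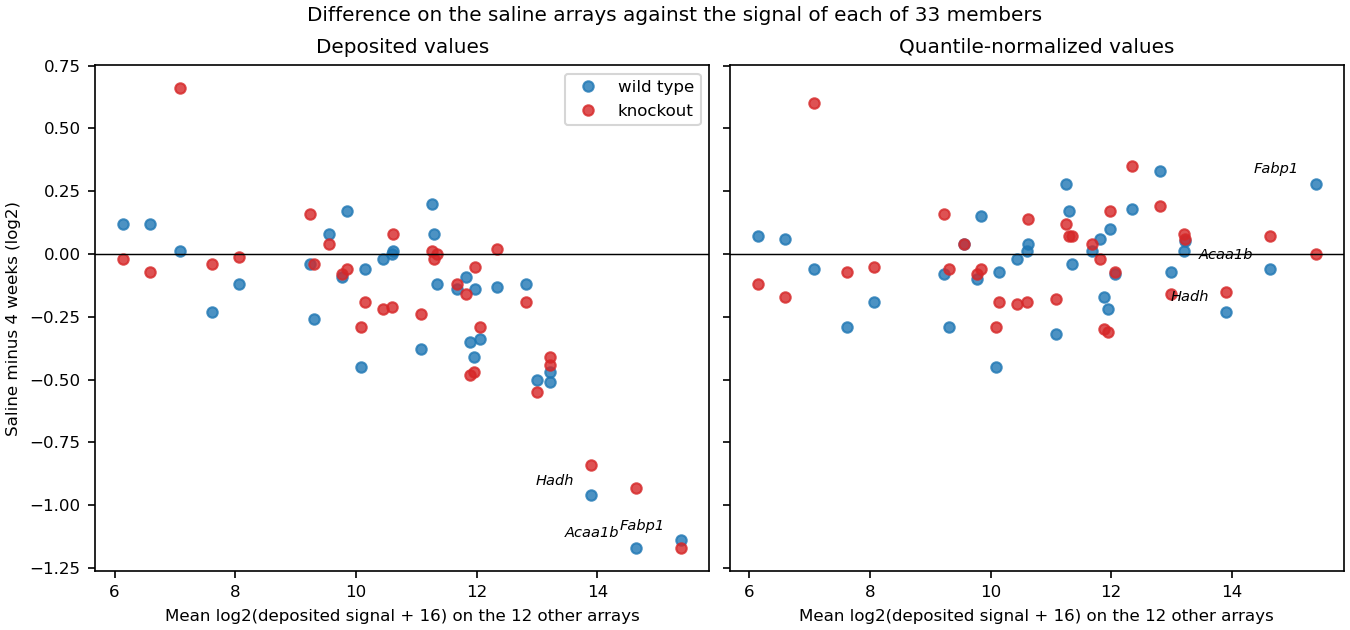
The saline minus 4-week difference in log2 of each of 33 members is plotted against its mean log2 signal on the 12 arrays without saline, in wild type (blue) and knockout (red). With deposited values the differences fall to -1.17 at the bright end (Fabp1, Acaa1b and Hadh), and with quantile-normalized values the correlations are 0.24 and 0.00.

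Comparing DEN with saline, 9 members rose and 1 fell in wild type (3.82% and 3.18% of all genes), and 12 rose and 0 fell in the knockout (7.73% and 7.51%). After quantile normalization these were 0 and 2 in wild type (1.58% and 2.19% of all genes), and 3 and 1 in the knockout (5.80% and 5.61%). The knockout rises on both scales were those of Acot13 (0.66 deposited, adjusted p 4.28e-05; 0.65 quantile, adjusted p 1.62e-04), Etfdh (0.47, adjusted p 1.29e-04; 0.33, adjusted p 0.00281) and Decr1 (0.49, adjusted p 7.87e-05; 0.27, adjusted p 0.00947). These are the members that also rose in the knockout from 4 weeks to DEN without the saline arrays in the fit, a comparison that shares the DEN arrays. In wild type Pdk4 fell by 0.91 (adjusted p 0.0295), with -0.87 (adjusted p 0.0638) after quantile normalization. That call was lost on leaving out 5 of the 6 arrays in turn, and without DEN replicate 2 the difference was -0.57 (adjusted p 0.174). Acot13 fell in wild type from 4 weeks to saline by 0.45 on both scales (adjusted p 0.00336 deposited, 0.00629 quantile), and in both genotypes Acadvl fell with deposited values, by 0.41 (adjusted p 0.00138) in wild type and 0.47 (adjusted p 3.36e-04) in the knockout. After quantile normalization Acadvl was called in the knockout, at -0.31 (adjusted p 0.0108), and not in wild type, at -0.22 (adjusted p 0.0807). Whether the change from saline to DEN differed between genotypes was tested for all members and called for none, with 0% of all genes called. An unadjusted p under 0.05 was found there for 4 members and for 8.13% of all genes. The change from 4 weeks to saline differed between genotypes for 0 members and for 0.00775% of all genes. There 0 members had an unadjusted p under 0.05, against 4.55% of all genes.

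Other genes of the pathway came from 8 lists of 92 genes, of which 78 were tested. The calls given here are from the comparisons without saline arrays unless stated. Of all genes, 1.78% rose and 1.29% fell in the knockout at 4 weeks. From 4 weeks to DEN 2.27% rose and 2.44% fell in wild type, and 4.32% and 4.47% in the knockout. Among 13 regulators of the receptor programme, Hnf4a, a hepatocyte transcription factor, rose in the knockout at 4 weeks by 0.46 (SE 0.08, adjusted p 0.00238) and fell there from 4 weeks to DEN by 0.43 (SE 0.08, adjusted p 0.00247). Its genotype difference changed by -0.59 (adjusted p 0.0157) between 4 weeks and DEN. Nr1d2, a clock repressor, rose from 4 weeks to DEN in wild type by 0.63 (adjusted p 0.00225) and in the knockout by 0.37 (adjusted p 0.0403; 0.34 and 0.0609 after quantile normalization). Creb3l3, which partners the receptor on Fgf21, rose in wild type by 0.35 (adjusted p 0.0130), and the deacetylase Sirt1 fell in the knockout by 0.38 (adjusted p 0.0282).

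Of 10 other genes of mitochondrial oxidation, Eci1, the isomerase for unsaturated chains, fell in the knockout at 4 weeks by 0.35 (adjusted p 0.0428). That call was lost after quantile normalization. From 4 weeks to DEN Eci1 rose in the knockout by 0.43 (adjusted p 0.00682). Acad9, another acyl-CoA dehydrogenase, rose in the knockout by 0.48 (adjusted p 0.0191), and Acacb, which makes the malonyl-CoA that blocks Cpt1a, fell in wild type by 0.87 (adjusted p 0.0129). Of 12 other peroxisomal genes, 1 was called without saline arrays: Ech1, an isomerase of unsaturated chains, rose in the knockout from 4 weeks to DEN by 0.27 (adjusted p 0.0212; 0.19 and 0.0574 after quantile normalization). From saline to DEN 5 of the 12 rose in each genotype and 0 fell, while 3.82% of all genes rose in wild type and 7.73% in the knockout. After quantile normalization 1 of the 12 rose and 1 fell in wild type (1.58% and 2.19% of all genes). In the knockout 2 rose and 2 fell (5.80% and 5.61% of all genes). Of 2 tested ketogenesis genes, Acat1 rose in the knockout by 0.25 (adjusted p 0.0471), a call lost after quantile normalization (0.15, adjusted p 0.191). Of 4 omega-oxidation genes, Cyp4a31 was higher in the knockout at 4 weeks by 0.78 (adjusted p 0.0445; 0.74 and 0.0594 after quantile normalization).

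Uptake and activation genes numbered 13. In the knockout at 4 weeks the carnitine transporter Slc22a5 rose by 0.42 (adjusted p 0.0237) and Fabp5, a binding protein of macrophages and fat cells, fell by 1.28 (adjusted p 0.0329). From 4 weeks to DEN the acyl-CoA synthetases Acsl3 and Acsl5 fell in wild type by 0.81 (adjusted p 0.00249) and 0.41 (adjusted p 0.0309), and Fabp2 rose in the knockout by 0.52 (adjusted p 0.00625). Of 14 lipid droplet genes, Cidea (1.27, adjusted p 0.0151) and the lipase Pnpla2 (0.58, adjusted p 0.0207) rose in wild type, and Plin5 fell in the knockout by 0.39 (adjusted p 0.0384). Cidea, also among the fat cell markers used here, had low signals of 1.32 to 61.7 over all arrays. Its median of 28.5 lay within the array medians of 23.3 to 31.5. Of 10 genes that follow fasting and insulin, 2 fell in wild type, Irs2 by 1.05 (adjusted p 0.0120) and Ppp1r3c by 1.01 (adjusted p 0.00958). In the knockout 4 fell: Igfbp1 by 1.28 (adjusted p 0.0291), Tat by 1.17, Ppp1r3c by 0.88 (adjusted p 0.0126) and Cebpb by 0.74 (adjusted p 0.0245). Of all genes 2.44% fell in wild type and 4.47% in the knockout. None of the 78 genes was called between genotypes with saline or with DEN.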

How the data were processed

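Values of 18 arrays (6 groups of 3) were used. The deposited values are linear intensity values, 1 per probe set, made with MAS5 per the submitters' processing notes, which give no version. Leaving out 64 control probe sets, log2(signal + 16) was computed, and the 27022 probe sets at or above the 40th percentile of mean log2 were tested. Group differences came from lmFit and eBayes with an intensity trend (limma 3.58.1, R 4.3.3), 1 coefficient per group, two-sided, with Benjamini-Hochberg adjustment over all 27022 and a threshold of 0.05; "rose" and "fell" mean past it. Shares of all genes count 12896 genes at 1 probe set each. In the platform annotation 34945 probe sets name 1 gene, 932 several and 9160 none. Precision is limited by the number of arrays, which have no sequencing depth. Quantile normalization was applied as an alternative to the deposited intensity values. A log2 difference is on the log2(signal + 16) scale and understates changes of low signals. The 12 comparisons share arrays. Calls were tested on simulated data. The simulation used independent noise and known changes, and held no shift of the saline arrays or of RNA quality.

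The members and lists were chosen with earlier results of these data known. All members are described by role. Those with an adjusted p under 0.05 were followed through the alternatives, and per-array signals were to be given for Ppara and the 6 members of smallest p in comparisons without saline arrays, since Acot13 alone was called in 2 or more. Per-array signals of the other called members and of Acot3 were added after their values were seen. Up to 4 called genes are named per list and comparison. Replicate numbers were not treated as pairing the arrays. Deviations from the group means of 45 same-numbered pairs correlated between -0.10 and 0.12 (median 0.00), and 2 pairs passed 0.1. These values show no strong shared deviation but cannot show that no pairing exists. Promoter sequences are RefSeq's (GRCm38.p6). The files' genome build is not given in the sources used here, and no coordinates other than those of the promoter sequences are printed.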

Additional observations from a re-analysis of the deposited data

Results flagged for a closer look

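The genotype difference of Acot13 changed between conditions by a test of the change itself. The knockout minus wild-type difference with DEN exceeded that at 4 weeks by 0.80 in log2 (limma, adjusted p 0.00875), from -0.50 at 4 weeks to 0.30 with DEN, with no overlap between the genotypes in either condition. Groups of 3 arrays are too small for a test of single outlying arrays.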

How the results depend on the processing

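Precision is limited by 3 arrays per group, and low signals such as those of Fgf21 and Acot3 by their spread. Quantile normalization changed the count of members called to 3 at 4 weeks between genotypes, 1 with saline between genotypes, 2 (DEN minus saline, wild type), 4 (DEN minus saline, knockout), 5 (saline minus 4 weeks, wild type) and 2 (saline minus 4 weeks, knockout). Of 12896 genes, 209 rose and 166 fell on those values between genotypes at 4 weeks, and 4 and 1 with saline. Shares of all genes for the other comparisons named are given above. Such shares were not counted under the other settings or with arrays left out. Quantile normalization turned the median for DEN minus saline in wild type to -0.03. For DEN minus saline it turned, in wild type, Fabp1 to -0.28, Crot to -0.10, Hadh to -0.08, Acaa2 to -0.10 and Acaa1b to -0.25, and in the knockout Fabp1 to -0.03, Crot to -0.06, Acadm to -0.20, Acaa2 to -0.08 and Acaa1b to -0.10. For saline minus 4 weeks it turned Fabp1 to 0.28, Crot to 0.05 and Acaa2 to 0.01 in wild type, and Fabp1 to 0.00, Crot to 0.06, Acaa2 to 0.08 and Acaa1b to 0.07 in the knockout. Averaging a gene's probe sets gave 2 calls at 4 weeks between genotypes and 2 for the change in genotype difference from 4 weeks to DEN, in both cases Acot13 with Cd36. It turned the wild-type DEN minus 4-week median to 0.05 and Hadh to 0.08 there, -0.13 (DEN minus saline, wild type), -0.37 (DEN minus saline, knockout) and 0.21 (saline minus 4 weeks, both genotypes). For DEN minus 4 weeks in wild type the count was 0 with only the compared groups, 2 without the 6 saline arrays and 2 without the 4-week array of highest Gapdh ratio in each genotype; in the knockout it was 3 without the saline arrays. Without those Gapdh arrays the change in genotype difference from 4 weeks to DEN was called for 2 members, Hacl1 and Acot13. The median change in genotype difference from 4 weeks to saline turned to -0.07 with centred array medians, -0.03 without _x_at and _s_at probe sets and ranged from -0.01 to 0.04 on leaving out each array. The cause of these shifts was not tested.

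Leaving out each array in turn, counts of members called ranged over 1 to 2 between genotypes at 4 weeks, 0 to 0 with saline and 0 to 0 with DEN. For DEN minus 4 weeks they were 2 to 6 in wild type and 2 to 5 in the knockout, for DEN minus saline 6 to 8 and 11 to 13, and for saline minus 4 weeks 8 to 9 and 7 to 8. For the change in genotype difference they were 1 to 3 from 4 weeks to DEN, and 0 to 0 for the other two. The DEN minus 4-week count of wild type fell to 2 without 4-week replicate 2 or 3 or DEN replicate 2 or 3, and that of the knockout to 2 without 4-week replicate 3 or DEN replicate 2 and to 3 without 4-week replicate 1. The DEN minus saline count of wild type was 6 without DEN replicate 3 or saline replicate 1 or 2. Between genotypes at 4 weeks Acaa1b joined Acot13 without wild-type replicate 1. For the change from 4 weeks to DEN in genotype difference, Hacl1 joined Acot13 without wild-type 4-week replicate 2, Pdk4 without wild-type DEN replicate 1, and Hacl1 and Acot3 without knockout DEN replicate 1. Of 312 gene values with an array left out, 260 kept direction and call and 52 lost the call; of 552 under other settings, 467 kept both, 63 lost the call and 22 turned. With the replicate number as a block, the counts were 1 between genotypes at 4 weeks, 5 for DEN minus 4 weeks in each genotype and 1 for the change in genotype difference from 4 weeks to DEN, and in no comparison did the block move the count by over 1.5 times.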

Other observations

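Fgf21 had 45.1, 31.9 and 90.8 on the wild-type DEN arrays and 39.5, 98.0 and 55.3 on the knockout ones, while its 12 other values lay between 46.1 and 72.8. Vnn1 reached 3239 on wild-type DEN replicate 2 and 3428 on knockout DEN replicate 3, and no other array passed 2543. Acot3 reached 326 and Acot1 974 on that same knockout array, each the highest of 18.

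Of 8 stellate and fibroblast markers 2 fell in the knockout at 4 weeks (list median -0.38) and 1 rose there from 4 weeks to DEN (median 0.14). Of all genes 1.29% fell and 4.32% rose in these comparisons. Dcn, a fibroblast proteoglycan, fell in the knockout at 4 weeks by 0.53 (adjusted p 0.00413) and rose there from 4 weeks to DEN by 0.46 (adjusted p 0.00651), with limma over all probe sets.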
